A study of Mus musculus with 6 samples.

Results

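The genes described here encode the core-binding factor, that is Runx1, Runx2 and Runx3 and the gene of their common partner CBF-beta, Cbfb. They are 4 of 22028 protein-coding genes and are given by name. That rule uses no measured value, but the 4 genes and the gene lists below were chosen with earlier results of these data known. Their shares beside all genes are therefore descriptions. CDK6 peaks were collected at their promoters, from 2000 bp before to 200 bp after every annotated transcript start, over the gene body, and over 50 kb to each side of it. Overlapping promoter windows were joined, which gave 7 promoters. The RUNX genes each had an upstream (distal) promoter P1 and a downstream (proximal) promoter P2, and Cbfb had a single one.

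Peaks came from ChIP-seq against the HA tag in murine pre/pro-B cell lines, grown out from C57BL/6 bone marrow after retroviral transfer of BCR::ABL1 (p185). The lines were Cdk6-/- and overexpressed HA-tagged CDK6, either wildtype (CDK6-WT, n = 2 libraries) or with the K43M exchange that inactivates the kinase (CDK6-K43M, n = 2 libraries). All 4 libraries therefore lack endogenous CDK6 and carry the BCR::ABL1 oncogene, and they measure an overexpressed protein. Setting them side by side addresses whether binding to chromatin depends on the kinase function. The labels do not say whether replicates are separate lines, so the spread between them may be technical, and 2 input libraries were not analysed here. RNA levels of these genes were not analysed here. The CDK6-WT replicates 1 and 2 gave 35189 and 34729 peaks, and those of CDK6-K43M 39797 and 37304. Over the 4 lists, joined peaks gave 56748 regions, of which 22979 were bound by both variants, meaning that at least 3 of the 4 lists had a peak. The strength of a peak is given as its percentile within its own list, ranked by −log10 q, so that 100 would be the strongest peak of that library. Promoter peaks of lineage genes followed the label of the cells: 7 of 7 B-lineage marker promoters had a peak in at least 3 lists. Such peaks were found at 1 of 5 T-lineage (Lck), 1 of 5 myeloid (Lyz2) and 0 of 3 erythroid markers. The share over all protein-coding genes was 41.3%.

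RUNX proteins bind DNA through the Runt domain. CBF-beta does not contact DNA itself but stabilises that binding and protects RUNX1 from degradation. RUNX1 is required for definitive blood stem cells and for B-lineage development and is a frequent target of leukaemic rearrangements, RUNX3 acts in lymphocytes, and RUNX2 is the master regulator of bone formation. In each RUNX gene, transcripts from P1 and from P2 encode proteins with different amino-terminal ends.

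The sequences of P1 and P2 differed in their RUNX words. The RUNX recognition word was searched on either strand in its usual form, TGTGGTT, and with C for the last base, with C for the third base (TGCGGTT), or with both. RefSeq promoters (GRCm38.p6, from 250 bp before to 50 bp after the start) were given for 6 of the 7 promoters, all but Runx2 P2. All of the 3 P1 promoters held the same pair of words, AACCACA repeated with 1 base between the copies (AACCACA is TGTGGTT read on the opposite strand), while Runx1 P2, Runx3 P2 and Cbfb held no RUNX word. Of all 32851 RefSeq promoters, 12.6% held at least 1 word, 0.810% held at least 2, and 5 held this pair on either strand. These 5 were the 3 RUNX P1 promoters, the promoter of Gm16225, which shares the Runx3 site on the opposite strand, and that of the olfactory receptor gene Olfr24. The pair was looked for after the first sequences had been seen. The 30 bases around it are shown on the strand of each gene to show how far the likeness extends, with the RUNX words in capitals.

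Runx1 P1 pair, chr16:92826025-92826054, minus strand: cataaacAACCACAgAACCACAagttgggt
Runx2 P1 pair, chr17:44814583-44814612, minus strand: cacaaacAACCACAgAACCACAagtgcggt
Runx3 P1 pair, chr4:135120503-135120532, plus strand: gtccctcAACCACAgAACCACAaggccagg

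The pair began 27 bases after the RefSeq start of Runx1 and 22 bases after that of Runx2, inside the first exon, but 135 bases before that of Runx3. The RefSeq start of Runx2 coincides with the most upstream annotated start codon of its P1 transcripts (chr17, position 44814627). Read from that codon the Runx2 pair lies in coding sequence, while that of Runx1 lies in untranslated sequence. Start codons of the other Runx2 P1 transcripts were not compared. From the GENCODE starts the distances are 102 bases downstream in Runx1, 192 bases downstream in Runx2 and 142 bases upstream in Runx3. CDK6 peaks covered the Runx3 pair in 4 lists and the Runx1 pair in 3 lists, all but CDK6-K43M replicate 2. The nearest summits lay 14 bp from the Runx3 pair (CDK6-WT replicate 1) and 29 bp from the Runx1 pair (CDK6-WT replicate 2). In every other list the nearest summit was more than 100 bp from the Runx1 pair, and 151 bp in CDK6-K43M replicate 1. The joined Runx1 P1 region held no RUNX word within 100 bp of its summit. At the Runx3 pair the summit was 40 bp away in CDK6-WT replicate 2 and 36 bp in CDK6-K43M replicate 1. In CDK6-K43M replicate 2 it was 176 bp away. No list had a peak over the Runx2 pair, and the nearest summit in any list was 36995 bp away. The pair of words was thus present at all 3 P1 promoters and lay under a CDK6 peak at 2 of them. Over the whole genome 9 of 22975 regions bound by both variants held it within 100 bp of the summit.

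Windows of 201 bp around summits follow for the promoters of Runx1 and Runx3 and for Cbfb, since these are the regions that the comparison of P1 with P2 turns on. They are given on the strand of the gene, in mm10, and the Runx1 P1 window is cut where the first exon begins. Capitals mark RUNX words and CCAAT boxes (CCAAT) on either strand, and in the Cbfb window the NRF-1 consensus palindrome. A single exact word each for ETS (CCGGAAGT), SP1 (GGGGCGGGG) and EBF factors (TCCCNNGGGA, N for any base) was searched too. None has a match in these windows. Of all regions bound by both variants, 3.86%, 6.02% and 2.99% held these words within 100 bp of the summit. Looser forms of the sites were not searched, so their absence is not shown. The summit of Runx2 P2 lies wholly within annotated untranslated exon sequence and is not shown.

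Runx1 P1, chr16:92826150-92826291, minus strand: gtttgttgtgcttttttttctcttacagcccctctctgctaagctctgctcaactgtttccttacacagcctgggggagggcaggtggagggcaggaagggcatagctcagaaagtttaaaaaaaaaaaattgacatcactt
Runx1 P2, chr16:92697347-92697547, minus strand: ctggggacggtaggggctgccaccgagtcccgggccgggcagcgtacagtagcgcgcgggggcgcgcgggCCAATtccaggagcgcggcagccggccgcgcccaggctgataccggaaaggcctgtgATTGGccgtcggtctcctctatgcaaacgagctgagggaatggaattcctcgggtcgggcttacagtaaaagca
Runx3 P1, chr4:135120381-135120581, plus strand: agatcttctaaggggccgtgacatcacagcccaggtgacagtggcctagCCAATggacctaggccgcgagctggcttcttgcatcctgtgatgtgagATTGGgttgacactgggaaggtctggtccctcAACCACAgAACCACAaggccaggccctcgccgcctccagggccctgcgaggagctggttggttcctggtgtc
Runx3 P2, chr4:135153701-135153901, plus strand: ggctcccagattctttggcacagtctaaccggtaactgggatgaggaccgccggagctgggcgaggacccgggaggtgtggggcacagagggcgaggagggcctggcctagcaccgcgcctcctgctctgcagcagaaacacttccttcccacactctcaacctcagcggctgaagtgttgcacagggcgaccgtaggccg
Cbfb, chr8:105170389-105170589, plus strand: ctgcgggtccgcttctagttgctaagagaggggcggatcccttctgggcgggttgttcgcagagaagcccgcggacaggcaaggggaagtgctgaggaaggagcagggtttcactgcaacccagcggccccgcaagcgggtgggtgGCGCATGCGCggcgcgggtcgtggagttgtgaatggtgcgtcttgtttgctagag

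The Runx3 P1 window holds the RUNX pair between CCAAT boxes and the start. The Runx1 P2 window holds 2 CCAAT boxes and no RUNX word. The Cbfb window holds an NRF-1 word, and the Runx3 P2 window holds none of the words marked. The printed stretch of Runx1 P1 holds none either, while 2 CCAAT boxes lie in the part of its window that is not shown. CCAAT lay within 100 bp of the summit in 19.7% of all regions bound by both variants, and in 22.8% at positions 1000 bp beside them. In the 4 loci it was 5 of 35 regions (14.3%). The NRF-1 word was found in 0.918% of all these regions, in 0.0435% beside them, and in 2 of the 35. A match to a word is not evidence of a bound site.

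CDK6 occupied nearly all of these promoters. Of 7 promoters, 6 had a peak in all 4 lists and Runx2 P1 had none in any list. With a −log10 q of at least 10 required, 3 of the 7 (Runx1 P1, Runx1 P2 and Cbfb) had a peak in at least 3 lists. At that filter 17.4% of all protein-coding genes had such a promoter peak, and the share of single windows was not computed. Without the filter, among all 30674 promoter windows of protein-coding transcripts, 24.1% had a peak in 4 lists, 30.4% in at least 3, and 60.7% in none. List by list the shares of all windows with a peak were 35.2% and 36.4% in replicate 1 of CDK6-WT and CDK6-K43M, and 29.6% and 29.2% in replicate 2. In Runx1 and Runx3 both promoters were occupied, and in Runx2 only the downstream one. Of the 4653 genes with exactly 2 separate coding promoters, both were bound in 4.9%, only the upstream one in 32.2%, and only the downstream one in 5.76%. The distance from P1 to P2 was 128.8 kb in Runx1, 78.1 kb in Runx2 and 31.8 kb in Runx3.

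CpG content was higher at the P2 promoters and Cbfb than at P1. The ratio of observed to expected CpG within 500 bp of the start was 0.865 at Runx1 P2, 0.909 at Runx2 P2, 0.949 at Runx3 P2 and 0.928 at Cbfb. At P1 it was 0.310 for Runx1, 0.361 for Runx3 and 0.164 for Runx2. Among all promoter windows, a peak in at least 3 lists was found at 65.2% of those with a ratio of 0.6 and over, at 21% of those from 0.3 to 0.6, and at 6.08% of those under 0.3. Runx2 P1, the unoccupied promoter, lay in the lowest class, and Runx1 P1 and Runx3 P1 were occupied in a class where most windows were not. What part CpG content has in the occupancy was not tested.

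**Figure D1:**
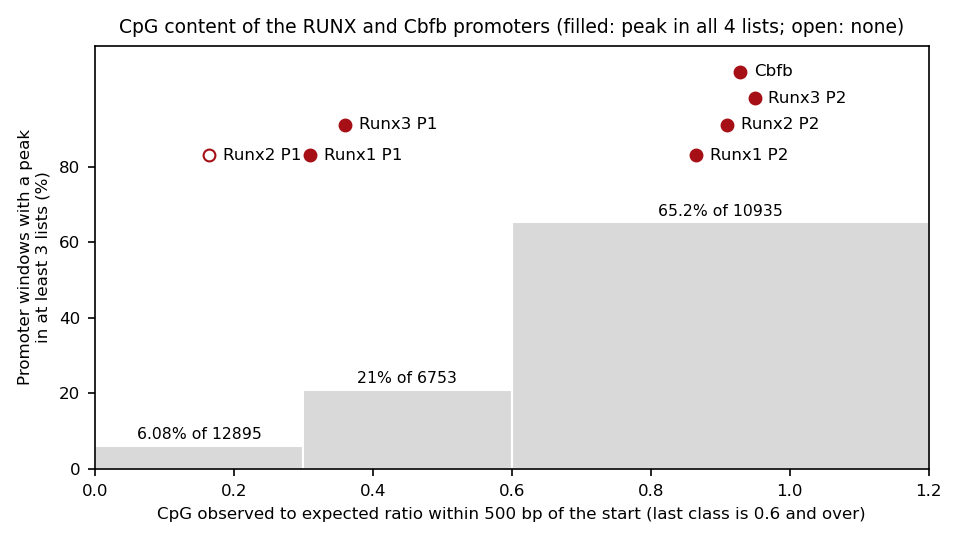
Grey bars give the percentage of promoter windows with a peak in at least 3 lists (vertical axis) in each class of CpG observed to expected ratio (horizontal axis), and red circles mark the ratio of the 7 RUNX and Cbfb promoters, their height carrying no value. The P2 promoters and Cbfb lie between 0.865 and 0.949, and the unoccupied Runx2 P1 (open circle) lies at 0.164.

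The strongest peak at Cbfb was high in every library. It stood at percentiles 79.4 and 90.7 in CDK6-WT replicates 1 and 2, and at 83.6 and 82.0 in CDK6-K43M. The groups overlapped, with means of 85.0 ± 7.94 for CDK6-WT and 82.8 ± 1.13 for CDK6-K43M (SD, n = 2 each), and the exact permutation p (two-sided throughout) was 1. Among all regions bound by both variants, this one (chr8:105170060-105170708) ranked at percentile 87.8. Further regions bound by both lay 318 bp and 831 bp downstream of the start, with mean percentiles of 35.7 over 3 lists and 54.2 over 4, and a peak 1673 bp upstream was found in CDK6-K43M replicate 2 alone (percentile 19.5). The small nuclear RNA gene Gm22063 also has its promoter window there, and peaks cannot be assigned to one of these genes.

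Runx1 P2 carried the strongest RUNX promoter peak. Its percentiles were 92.6 and 61.1 in CDK6-WT replicates 1 and 2, and 77.7 and 90.0 in CDK6-K43M. The CDK6-WT libraries enclosed the CDK6-K43M ones, and the difference of 6.99 percentile points (CDK6-K43M minus CDK6-WT) was below the spread (exact permutation p = 1). The peak spanned the start, at chr16:92696565-92698484, with the summit 119 bp upstream. A weaker region 1474 bp upstream was found in the replicate 1 lists only, at percentiles 44.8 for CDK6-WT and 69.2 for CDK6-K43M.

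Runx1 P1 was occupied at 74.4 and 70.2 in CDK6-WT replicates 1 and 2, at 78.3 in CDK6-K43M replicate 1, and at 26.4 in CDK6-K43M replicate 2. One library was thus low and the other 3 close together. The difference between variants, -20.0 points (exact permutation p = 1), was 3.91 within replicate 1 and -43.8 within replicate 2. Solving the fold enrichment and the p-value of each peak for reads gave 26, 20, 34 and 11 reads at these summits, in the same order of libraries. The region was chr16:92825579-92826709, with the summit 42 bp upstream of the start. Other peaks in the P1 window were low or came from replicate 1 alone: one 2024 bp upstream at percentiles 1.32 (CDK6-WT) and 56.5 (CDK6-K43M), and one 903 bp upstream at 1.94 in CDK6-K43M replicate 1.

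Runx2 P2 showed the largest difference between the variants among the 6 promoters. Its strongest peak stood at 42.5 and 36.3 in CDK6-WT and at 55.2 and 78.9 in CDK6-K43M. Both CDK6-K43M values were above both CDK6-WT values, with means of 39.4 ± 4.42 and 67.1 ± 16.7 (SD, n = 2 each). The difference came to 27.7 points. An exact permutation test (two-sided) gave p = 0.33, which is the lowest value possible with 2 libraries a group, and 1 after Benjamini-Hochberg adjustment over the 6 promoters. The region, chr17:44735841-44736647, centred 450 bp downstream of the start and also covers the start of the antisense transcript Runx2os1, so ChIP peaks cannot tell these apart.

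Runx3 P1 was the weakest of the occupied promoters. The percentiles were 30.0 and 43.9 in CDK6-WT and 63.4 and 12.3 in CDK6-K43M, so that the CDK6-K43M libraries lay on either side of the CDK6-WT ones (difference 0.89 points, exact permutation p = 1). The replicate 1 libraries differed by 33.4 points and the replicate 2 libraries by -31.6. The region (chr4:135120197-135120706) lies over the window with the RUNX pair printed above, and over the divergent start of Gm16225.

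At Runx3 P2 the picture was one of several moderate peaks. The strongest peak in the window stood at 60.6 and 36.3 in CDK6-WT and at 73.3 and 64.0 in CDK6-K43M, without overlap of the groups (difference 20.2 points, exact permutation p = 0.33, adjusted p = 1). These peaks were not the same region in each library. In the replicate 1 lists the strongest peak lay 1871 bp upstream of the start and was absent from the replicate 2 lists. In the replicate 2 lists it lay at chr4:135153451-135154428, 1305 bp downstream, where the replicate 1 lists had peaks at 16.3 (CDK6-WT) and 45.4 (CDK6-K43M). The start itself carried a region unique to CDK6-K43M, chr4:135152301-135152566, found in both of its lists and in neither CDK6-WT list. It was weak, at percentiles 8.72 and 16.2, with 17 and 10 reads at the summit. A peak 409 bp downstream was found in CDK6-K43M replicate 1 alone (percentile 12.5).

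**Figure D2:**
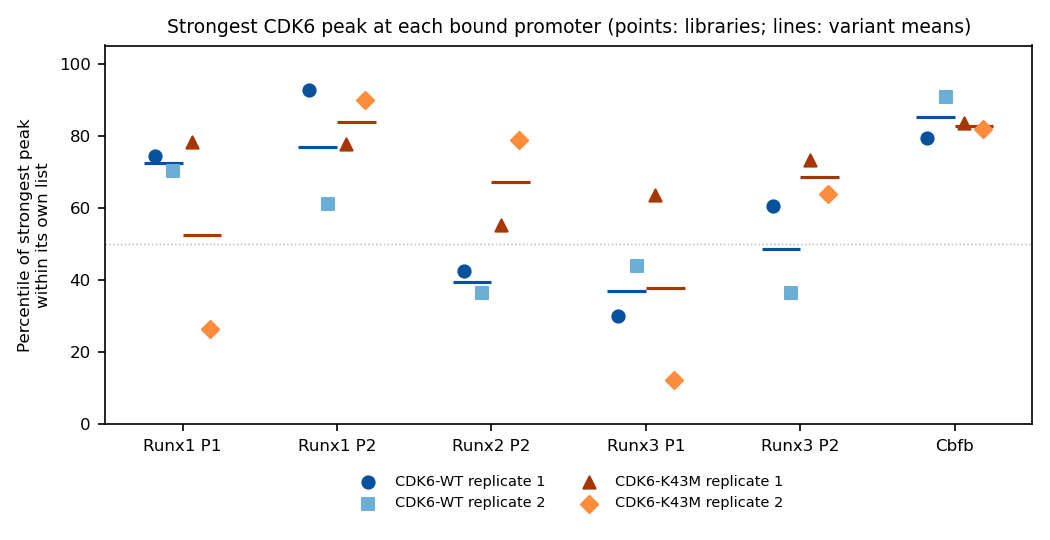
Each point is the strongest peak of 1 library at a promoter, as its percentile within that library's own list (vertical axis), for the 6 promoters with a peak in all 4 lists, and short lines are the means of each variant (n = 2). Cbfb is high and tight between 79.4 and 90.7, whereas Runx1 P1 and Runx3 P1 each have 1 low CDK6-K43M library, at 26.4 and 12.3.

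In the order of mean percentile the promoters stood as Cbfb, Runx1 P2, Runx1 P1, Runx3 P2, Runx2 P2 and Runx3 P1. Each overlapped its neighbour in that order when all 4 libraries were considered. Likeness was measured as the distance between the 4 percentiles of a promoter and those of 7312 protein-coding genes with a peak in all 4 lists. The nearest genes were Tspan13, Gdpd1 and Rdh10 for Cbfb (distances 3.51 to 4.32 points), Alkbh5, Adat3 and Scamp4 for Runx1 P2 (5.87 to 7.36), and Dctn1, Dars and Pigp for Runx1 P1 (1.72 to 7.10). For Runx2 P2 they were Tppp, Tmem131l and Ice2 (9.82 to 12.6), for Runx3 P1 Mccc1, Aptx and Ybx3 (5.76 to 11.1), and for Runx3 P2 Pstk, Ctsb and Clcc1 (6.17 to 8.87). Adat3 and Scamp4 share all 4 values.

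Away from their promoters, the RUNX genes held intronic regions bound by both variants and Cbfb held none. In the 4 loci together, with promoters and flanks included, 65 regions were found. Of them, 35 (53.8%) were bound by both variants, against 40.5% of all regions. Of these 35, 9 lay in the Runx1 locus, 5 in Runx2, 10 in Runx3 and 11 in Cbfb. The share was 50% in the Runx1 and Runx3 loci, 45.5% in Runx2 and 68.8% in Cbfb. By part, it was 8 of 15 regions at promoters, 12 of 27 (44.4%) in gene bodies outside them, and 15 of 23 (65.2%) in flanks. Outside the promoter windows of the gene itself, the bodies of Runx1, Runx2 and Runx3 held 4 each and Cbfb 0, with 1 further Cbfb intron region in CDK6-WT replicate 1 alone (percentile 14.5). One of the 4 in Runx2 lies at the promoter of Supt3, and 3 remain without it. Per 100 kb of gene body the 4 came to 1.78 in Runx1, 1.25 in Runx2 and 6.98 in Runx3, which placed them at percentiles 81.4, 77.9 and 97.5 of the 10167 protein-coding genes of at least 20 kb, counted in the same way. Without the region at Supt3, an alternative chosen after seeing the data, the value of Runx2 was 0.94. Of these genes 28.8% had any region bound by both in the body outside their own promoters, and 58.8% in the body as a whole. Runx3, the shortest of the RUNX genes, was also dense with promoters included, at 10.5 regions per 100 kb (percentile 97.7). That density depended on the strength of peak required. It was 8.72 (percentile 97.8) with a −log10 q of at least 5, and with at least 10 it was 1.74 (percentile 80.8), below the 2.11 of Cbfb (percentile 83.4), beside 1.34 in Runx1 and 0.94 in Runx2.

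**Figure D3:**
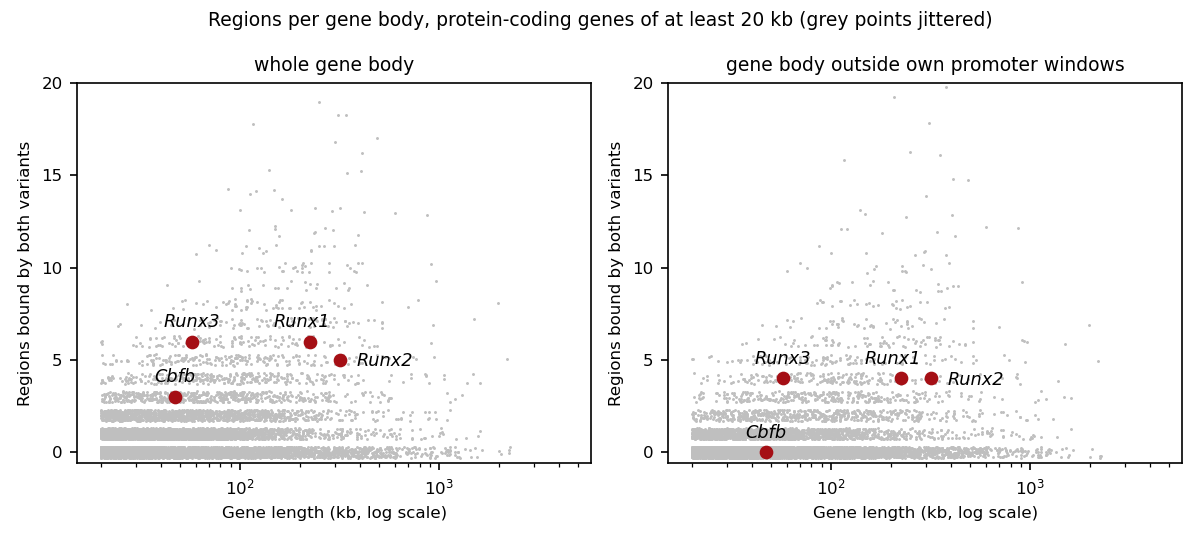
Each grey point is a protein-coding gene of at least 20 kb, with its length on a logarithmic horizontal axis and its number of regions bound by both variants on the vertical axis, for the whole body (left) and outside the gene's own promoter windows (right). Red points mark the 4 genes; 7 genes (left) and 4 genes (right) lie above the top of the axis at 20. Runx1, Runx2 and Runx3 each have 4 regions in the right panel and Cbfb has 0.

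The strongest region of all in these genes was intronic, in Runx2. At chr17:44654427-44655188, 160.0 kb downstream of the P1 start and 81846 bp downstream of the P2 start, it had percentiles of 91.7 and 98.5 in CDK6-WT and 98.7 and 97.8 in CDK6-K43M. With a mean of 96.7 ± 3.35 (SD over 4 libraries) it ranked at percentile 99.5 among all regions bound by both. The summits rested on 43, 48, 75 and 41 recovered reads over 2.52, 1.73, 3.11 and 1.57 background reads. All 4 libraries were high, and the difference between the variants was 3.17 points (exact permutation p = 0.67). The window around its summit is given as the strongest example and held none of the words searched.

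Runx2 intron, chr17:44654702-44654902, minus strand: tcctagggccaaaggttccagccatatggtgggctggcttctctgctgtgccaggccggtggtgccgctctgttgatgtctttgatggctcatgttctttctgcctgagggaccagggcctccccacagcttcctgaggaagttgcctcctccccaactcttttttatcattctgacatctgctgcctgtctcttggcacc

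The other named Runx2 intron regions were weaker. One, at chr17:44672268-44673164, stood at 75.2, 61.1, 76.7 and 75.9 in CDK6-WT replicates 1 and 2 and CDK6-K43M replicates 1 and 2. The next, at chr17:44661470-44661938, followed the replicate number, with 51.6 and 49.4 in the replicate 1 lists of CDK6-WT and CDK6-K43M against 94.8 and 84.0 in the replicate 2 lists. The fourth intronic region, 37.7 kb downstream of P1, was named after its values were seen: it lies at the promoter of Supt3, a gene that overlaps Runx2 on the opposite strand. CDK6 occupancy of the Runx2 body thus comprised P2, the promoter of another gene and intronic regions, with no peak at P1.

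In Runx3 the strongest body region lay 10.7 kb downstream of P1, at chr4:135130972-135131981. It was even across libraries, at 90.7 and 90.0 in CDK6-WT and at 92.5 and 93.3 in CDK6-K43M. The CDK6-K43M values were above both CDK6-WT values by little, with a difference of 2.52 points (exact permutation p = 0.33). Its summit window held 1 RUNX word (in capitals), beside none of the other words, and in each library the region ranked above Runx3 P1.

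Runx3 intron, chr4:135131213-135131413, plus strand: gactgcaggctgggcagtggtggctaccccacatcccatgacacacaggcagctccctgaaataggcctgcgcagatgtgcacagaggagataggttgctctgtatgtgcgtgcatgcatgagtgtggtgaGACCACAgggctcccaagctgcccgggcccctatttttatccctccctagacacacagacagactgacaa

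Nearby regions varied more. The one 8.3 kb downstream of P1 was at 61.3 and 87.1 in CDK6-WT and at 44.1 and 52.0 in CDK6-K43M, a difference of -26.1 points without overlap (exact permutation p = 0.33). The one 16.2 kb downstream went the other way, at 57.4 and 18.5 in CDK6-WT and at 63.8 and 64.0 in CDK6-K43M (difference 25.9 points, exact permutation p = 0.33). A further region, chr4:135159718-135160056 in an intron downstream of P2, was unique to CDK6-K43M, at 47.0 and 26.4. With the one at the P2 start it made 2 regions unique to CDK6-K43M in the 65 of these loci, both in Runx3, and 0 unique to CDK6-WT. Of all regions, 1.26% were unique to CDK6-K43M and 0.359% to CDK6-WT. With peaks within 500 bp merged, or with a −log10 q of at least 5 required, 0 regions of these loci were unique to CDK6-K43M. CDK6-K43M replicate 1 had the longest list and the most reads at its summits (median 23, against 15 to 20 in the others), and what part this has in such calls was not tested.

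Runx1 differed from Runx3 in having weaker body regions. The strongest, at chr16:92823407-92823910, lay 2.4 kb downstream of P1, at 48.0 and 68.9 in CDK6-WT and at 55.2 and 77.6 in CDK6-K43M. Regions 181.3 kb and 205.2 kb downstream of P1 had mean percentiles of 40.8 over 4 lists and 39.8 over 3. The intron downstream of P1 is known to hold a haematopoietic enhancer of Runx1, usually named by its distance from the P1 start codon. A region bound in the replicate 1 lists only, chr16:92801571-92802057, had its summit 23829 bp downstream of that codon, at 44.0 in CDK6-WT and 64.8 in CDK6-K43M. It was named for this position after its values were seen, both replicate 2 lists lacked it, and whether it is that enhancer was not tested. Its summit window, shown for comparison with P1, held a single RUNX word.

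Runx1 first intron, chr16:92801717-92801917, minus strand: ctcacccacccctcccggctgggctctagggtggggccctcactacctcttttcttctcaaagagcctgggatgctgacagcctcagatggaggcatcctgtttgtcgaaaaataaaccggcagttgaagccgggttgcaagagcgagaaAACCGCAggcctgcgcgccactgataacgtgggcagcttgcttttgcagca

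The share of regions with a RUNX word was close to that of the whole genome. Within 100 bp of the summit, 6 of 35 regions bound by both held a word (17.1%, 95% Wilson interval 8.10 to 32.7%), against 16.9% of 22975 such regions in the genome and 8.85% at positions 1000 bp beside them. The 6 were Runx3 P1, the Runx3 introns 10.7 kb and 16.2 kb downstream of P1, the Runx2 intron 153.2 kb downstream of P1, a Runx1 upstream region and the Tradd promoter beside Cbfb. The interval is wide, and a difference of moderate size was not detectable with 35 regions.

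**Figure D4:**
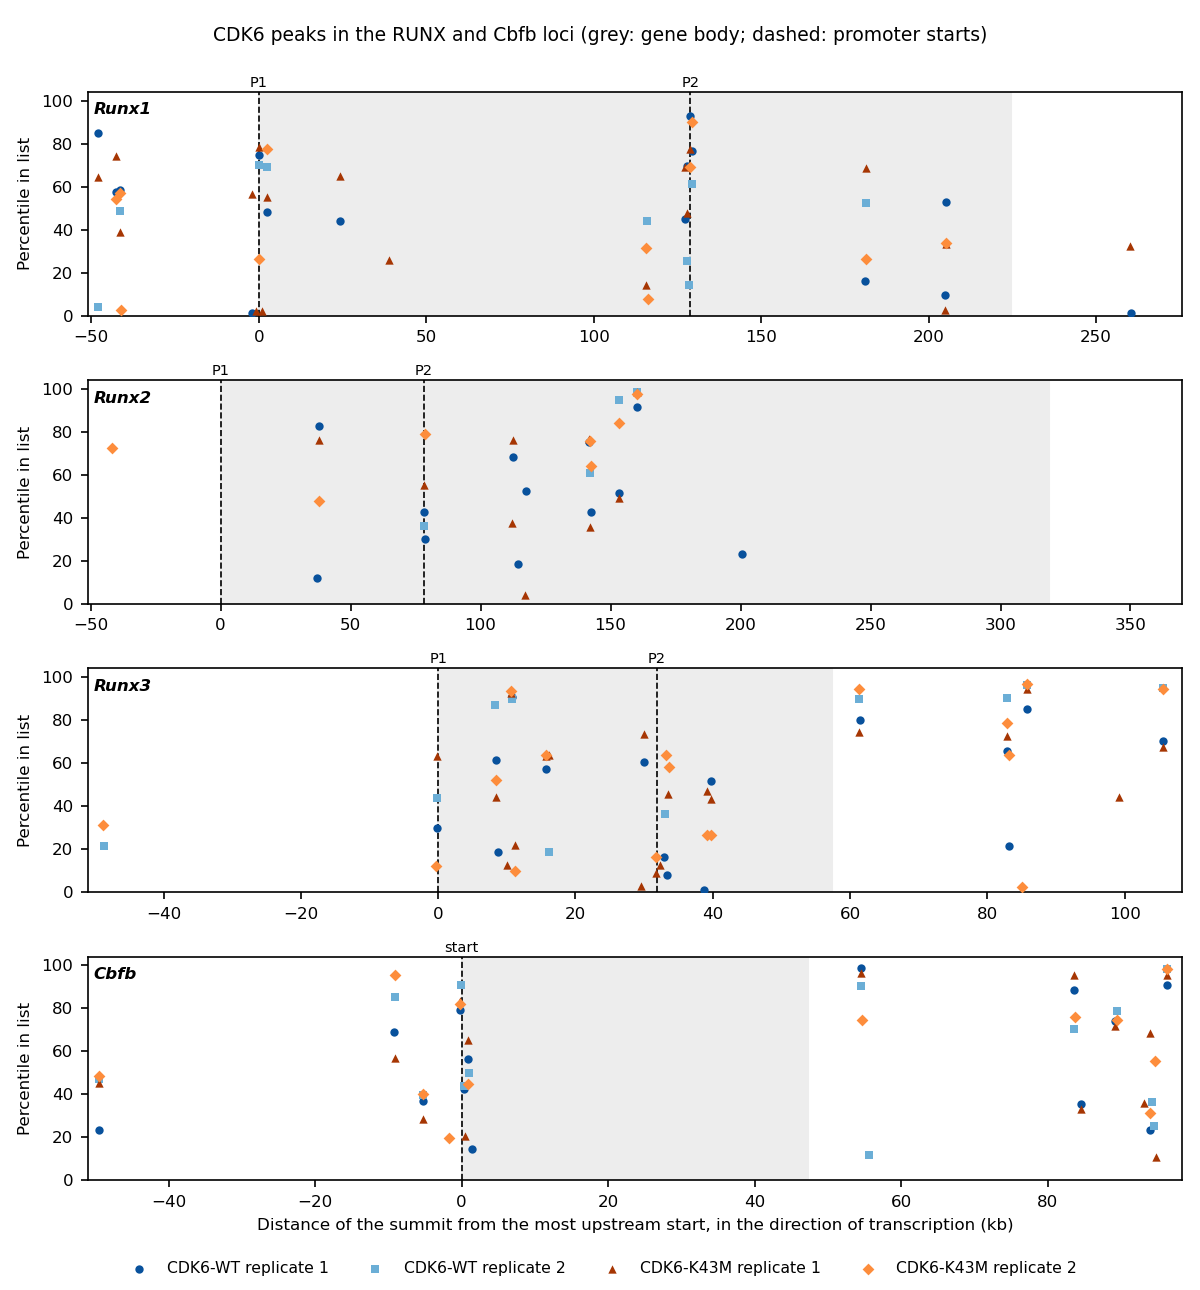
Every peak of the 4 lists in each locus is a point, placed by the distance of its summit from the most upstream start in the direction of transcription (horizontal axis, kb) and by its percentile within its list (vertical axis). Grey shading is the gene body and dashed lines are promoter starts: no point lies at Runx2 P1, the Runx2 intron near 160.0 kb is high in 4 libraries, and the Cbfb body is empty beyond its first few kb.

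The flanks held strong regions next to Runx3 and Cbfb. Downstream of Runx3, in sequence with no annotated promoter, a region 28464 bp past the gene end (chr4:135206146-135206672) stood at 85.3 and 96.2 in CDK6-WT and at 94.6 and 96.7 in CDK6-K43M, and another 3995 bp past the end had a mean of 84.7 ± 9.10 (SD over 4 libraries). Upstream of Runx1, the strongest flank regions lay 42.6 kb and 48.1 kb before P1, over the long noncoding RNA gene Gm49723, and were each missing from 1 list of replicate 2. The Cbfb flanks held 8 regions bound by both, 3 of them at promoters of other genes. The highest were at chr8:105266732-105267224 over Fbxl8, with 90.8 and 98.5 in CDK6-WT and 95.4 and 98.1 in CDK6-K43M, and at the promoter of D230025D16Rik, with a mean of 90.0 ± 11.0. The Runx2 flanks held 0 regions bound by both. No measurement here links a flank region to a gene.

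Peak numbers over the Runx1 and Runx2 loci differed more between replicates than between variants. Runx1 had 15 and 9 peaks in CDK6-WT replicates 1 and 2, and 18 and 11 in CDK6-K43M (difference 2.5, exact permutation p = 0.67). Runx2 had 12 and 4 against 9 and 7 (difference 0, p = 1 by the same exact test). In each of these genes the replicate 1 lists held more peaks than the replicate 2 list of the same variant. Runx3 had 15 and 10 peaks in CDK6-WT and 19 and 17 in CDK6-K43M, without overlap (difference 5.5, exact permutation p = 0.33, adjusted over the 4 genes p = 1). This difference was 2.5 with a −log10 q of at least 5 required and turned to -0.5 with at least 10. Per 10000 peaks of the list these were 4.26 and 2.88 against 4.77 and 4.56. Cbfb had 13 in both CDK6-WT lists and 14 and 12 in CDK6-K43M (difference 0, exact permutation p = 1). Of the 12 regions in these loci that were found in exactly 2 lists, 9 were shared by the replicate 1 lists, 1 by the replicate 2 lists and 2 by the CDK6-K43M lists. Among the 15287 such regions of the genome, 48.1% were shared by the replicate 1 lists and 41.0% by the replicate 2 lists.

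Promoters of the genes that RUNX proteins work with were covered next. Of 22 coregulators, 15 (68.2%, 95% Wilson interval 47.3 to 83.6%) had a promoter peak in at least 3 lists. Of 12 DNA-binding partners and their cofactors, 8 did (66.7%, 95% Wilson interval 39.1 to 86.2%). The share of all protein-coding genes was 41.3%, which the interval of the partners includes. With a −log10 q of at least 10 required, these were 8 of 22 coregulators and 7 of 12 partners, beside 17.4% of all protein-coding genes. Without that filter, 65.2% of all promoter windows with a CpG ratio of 0.6 and over had a peak in at least 3 lists. The CpG content of the listed genes was not computed, and its part in these shares was not tested. The median of the mean percentiles among genes with peaks in all lists was 67.0 for coregulators and 80.0 for partners, and 71.5 for all genes. Among the coregulators with peaks in all 4 lists the highest were Kmt2a, the histone H3 lysine methyltransferase MLL, which binds RUNX1 (mean 91.8 ± 9.50), and Cbfa2t3, a corepressor of the ETO family (88.2 ± 13.1). The lowest were the acetyltransferase Crebbp (36.7 ± 24.1) and the corepressor scaffold Sin3a (55.0 ± 30.5). No list had a peak at Runx1t1, the fusion partner of RUNX1 in acute myeloid leukaemia, at Tle2, a Groucho corepressor, or at Yap1 and Wwtr1, the Hippo pathway coactivators. Among the partners with peaks in all 4 lists, Lyl1, a blood-specific bHLH factor (94.2 ± 5.67), and Ets1, which binds DNA together with RUNX1 (84.7 ± 7.31), were highest, and Ldb1 (67.8 ± 7.43) and Erg (58.1 ± 16.3) lowest. Cebpa and Gata1, myeloid and erythroid factors, had no peak in any list.

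Known RUNX target genes were covered separately for blood and bone. The haematopoietic list shares genes with other sets given here, so these are not independent results. Spi1 is also counted among the partners, and Cd79a and Ebf1 among the B-lineage markers. Cd4 is also a T-lineage marker, and Csf1r, Mpo and Elane are also myeloid markers. Of 18 haematopoietic targets, 9 (95% Wilson interval 29.0 to 71.0%) had a peak in at least 3 lists, beside 41.3% of all protein-coding genes, and 5 with a −log10 q of at least 10 required, beside 17.4%. Among those with peaks in all 4 lists the highest were Cdkn2a, the locus of the CDK6 inhibitor p16INK4A (mean 95.6 ± 4.26), and Blk, a B-cell Src kinase (85.4 ± 11.9), and the lowest were Rag2 (59.5 ± 44.0) and the T-cell factor Zbtb7b (54.6 ± 27.7). Rag2 stood at 12.2 and 32.1 in the replicate 1 lists of CDK6-WT and CDK6-K43M, but at 95.5 and 98.4 in the replicate 2 lists. Its neighbour Rag1, named after its values were seen, had peaks in the replicate 2 lists alone, at 98.3 and 92.3, so that peaks at both recombinase genes were stronger in replicate 2 of each variant. Genes with no peak in any list were Cd4, the myeloid genes Csf1r, Elane and Mpo, and the cytokine genes Csf2 and Il3. Of 9 skeletal RUNX2 targets, 1 (11.1%, 95% Wilson interval 1.99 to 43.5%) had a peak in at least 3 lists. That interval includes the 41.3% of all protein-coding genes. The bound target was the alkaline phosphatase gene Alpl (mean 73.7 ± 18.9). The osteocalcin genes Bglap and Bglap2, and Col10a1, Dmp1, Ibsp, Mmp13 and Sp7, had no peak in any list.

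**Figure D5:**
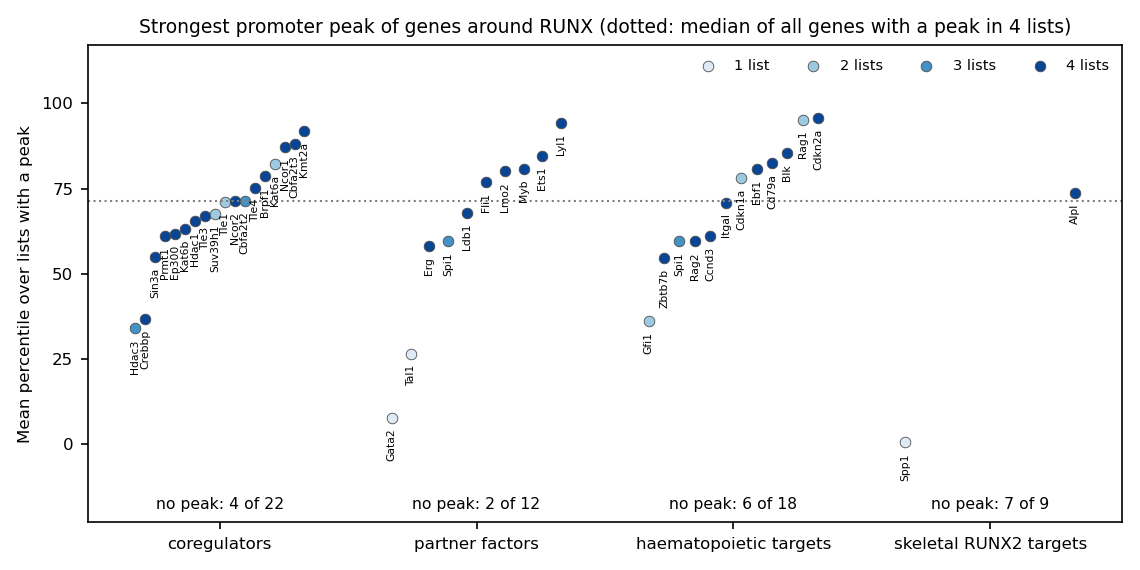
Each point is a gene of 1 of 4 lists, at the mean percentile of its strongest promoter peak over the lists that had one (vertical axis), with darker points for peaks in more lists, and the dotted line is the median of all genes with a peak in 4 lists (71.5). Genes with no peak are counted under each group: 4 of 22 coregulators, 2 of 12 partners, 6 of 18 haematopoietic targets and 7 of 9 skeletal targets.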

How the data were processed

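Anti-HA ChIP-seq libraries (2 CDK6-WT, 2 CDK6-K43M) were grouped by their titles. Per the labels and the study's methods, the authors checked reads with FastQC 0.11.5, trimmed them with Trimmomatic 0.36, aligned them to mm10 with BWA 0.7.15, filtered out reads in blacklisted regions with bedtools, and those of low quality or with several mapping positions with SAMtools 1.3.1, and called peaks with MACS2 2.1.0 for each library separately. The deposited lists give, for each peak, a fold enrichment (a ratio to local background), 2 values as −log10 (a p-value and a q-value), a score that is 10 times the latter cut to a whole number, and the summit position as other information. Lists began at a −log10 q of 1.31 to 1.34.

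The lists hold no read totals, so the depth is not stated in them. Reads at summits were recovered by solving fold enrichment and p-value for whole reads, which matched 100% of the peaks of each list within 0.001 of the −log10 p, and covered counting error only. Median reads at summits were 20, 18, 23 and 15 in CDK6-WT replicates 1 and 2 and CDK6-K43M replicates 1 and 2. A weak site can therefore be missed in one library. The recovery, the merging and the window counts were tested on simulated data.

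Transcript starts came from GENCODE vM21 (mm10). Peaks of the 4 lists were joined into regions where they shared 1 bp or more. Percentiles rank −log10 q within a list. Variants were compared by exact permutation tests (two-sided) over the 6 ways to divide 4 libraries, with a lowest possible p of 0.33, with Benjamini-Hochberg adjustment. Regions, gene lists and motifs were described beside the same values for all regions or genes, without a test. P1 was the unit with the most upstream start of a coding transcript with an annotated start codon, and P2 the next one downstream with another start codon. Named outside promoters were, per gene, the 3 body and 2 flank regions bound by both with the highest mean percentile and all variant-unique regions, and in each gene list the 2 highest and 2 lowest of those with peaks in all 4 lists and the genes without a peak. The 4 genes and all lists were chosen with earlier results of these data known. As alternatives, peaks needed a −log10 q of at least 5 or 10, or the lists were shortened to equal length. Others were summits in place of peaks, 500 bp windows, merging within 500 bp, ranking by fold enrichment, counts per 10000 peaks, gene bodies alone, motif windows of 50 bp, a replicate block, and each library left out. Python 3.11.15, numpy 2.4.6, pandas 2.3.3, scipy 1.17.1, pysam 0.24.0 and matplotlib 3.10.9 were used.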

Additional observations from a re-analysis of the deposited data

How the results depend on the processing

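The 23 results were recomputed under 139 alternative values, of which 116 kept their direction, stayed within 1.5 times the reported count, or, for a reported difference of 0 or a share, stayed within 1 SD between replicates or the 95% interval. The strictest filter moved most. With a −log10 q of at least 10, 3 promoters in place of 6 had a peak in at least 3 lists, 17 locus regions in place of 35 were bound by both, and the Runx3 difference in locus peaks turned from 5.5 to -0.5. Body regions per 100 kb fell to 1.34 in Runx1, 0.94 in Runx2, 1.74 in Runx3 and 2.11 in Cbfb, and 8 coregulator and 5 haematopoietic target promoters were bound in at least 3 lists. Under this filter 1 locus region was unique to CDK6-K43M and 1 to CDK6-WT. With at least 5, the Runx1 density was 1.78, and 0 regions were unique to CDK6-K43M and 1 to CDK6-WT. Merging peaks within 500 bp also left 0 unique to CDK6-K43M. Counting peaks in gene bodies alone gave a difference of -2 at Cbfb in place of 0. The q filters leave fewer peaks by construction, and the causes of these shifts were not tested.

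Leaving out each library in turn gave differences in promoter percentile, CDK6-K43M minus CDK6-WT, from -46.0 to 6.03 at Runx1 P1, -8.81 to 22.8 at Runx1 P2, -24.7 to 26.5 at Runx3 P1 and -7.90 to 3.33 at Cbfb. The sign turned without CDK6-K43M replicate 2 at Runx1 P1 (6.03), without CDK6-WT replicate 2 at Runx1 P2 (-8.81) and Cbfb (3.33), and without CDK6-WT replicate 1 (-6.03) or CDK6-K43M replicate 1 (-24.7) at Runx3 P1. The difference stayed positive at Runx2 P2 (15.9 to 39.5) and Runx3 P2 (8.03 to 32.4). The difference in locus peaks ran from -1 (without CDK6-K43M replicate 1, and -0.5 without CDK6-WT replicate 2) to 6 at Runx1, -4 to 4 at Runx2, 3 to 8 at Runx3 and -1 to 1 at Cbfb. Promoter occupancy stayed at 6 of 7 in each case.

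With the replicate number as a block, the difference at Runx2 P2 was 27.7 and at Runx3 P2 20.2, each with an exact p of 0.5, the lowest that 2 pairs allow, and no p with or without the block can fall below 0.05. The labels do not say that a number marks a shared line or day. Over the 16381 regions in all 4 lists, the replicate difference of CDK6-WT correlated with that of CDK6-K43M (Pearson r = 0.68, across regions, which are not independent replicates).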
